A study of Mus musculus with 6 samples.

Results

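Kidneys of mice carrying the reference form (G0) of human APOL1 were compared with kidneys of wild-type mice, across all expressed genes. The comparison sets 4 of the 6 bulk RNA-seq libraries of the study against each other: 2 of genotype G0APOL1 and 2 of genotype WT. The other 2 libraries, of genotype G2APOL1, carry a form of APOL1 linked to risk of kidney disease and serve here to show where G0APOL1 kidneys differed from them. They also entered the fit, so the spread behind each p-value was estimated from all 6 libraries. Libraries were chosen by genotype label alone. Every mouse, WT included, had 1 kidney removed at 6 weeks of age and was then kept on a diet with 4% salt, so no library shows a kidney without surgery and salt. The study's title calls the transgenes inducible and specific to a cell type, and its design text writes them as EC/G0APOL1 and EC/G2APOL1 without spelling out EC. The promoter, the inducing agent, whether WT mice received it, the sex, the number of founder lines and the time from surgery to sampling are not stated in the sources used here. Nothing says that the libraries came from separate animals, so p-values measure the spread between these libraries, which may be technical.

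APOL1 encodes apolipoprotein L1, a protein of human serum and cells that kills trypanosomes by forming ion channels in their membranes. Mice have no counterpart of APOL1 itself, only other Apol genes, and in people the G1 and G2 forms, but not G0, are linked to kidney disease. The kidney is mostly tubule by mass. The proximal tubule in the cortex reabsorbs filtered protein, glucose, amino acids and bicarbonate and secretes drugs; the loop of Henle, distal tubule and collecting duct adjust salt and water; and endothelium, mural cells, fibroblasts and immune cells lie between the tubules. In bulk tissue, fewer cells of a type and less RNA per cell cannot be told apart.

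The G0APOL1 libraries held 10027178 and 8490396 counts, and the WT libraries 9639008 and 8752035. Transcripts of the mitochondrial genome made up 15.5% and 15.9% of counts in G0APOL1 libraries, against 14.6% and 21.1% in WT libraries. The WT pair was the least alike of the 3 pairs (Pearson's r of log2 CPM across genes 0.913), against 0.929 for the G0APOL1 pair. In a principal component analysis, the component that took up 38.5% of variance placed the G0APOL1 libraries at 39.37 and 34.94, the G2APOL1 libraries at 37.4 and 29.72 and the WT libraries at -60.16 and -81.28. The next component (22.6%) set G0APOL1 replicate 2 at -72.06, away from the other libraries. WT replicate 2 also stood apart by its lymphocyte genes: the 12 listed summed to 13.6 and 11.0 CPM in G0APOL1 libraries, against 14.7 and 273 CPM in WT libraries, and the immunoglobulin heavy chain gene Ighm alone gave 245 CPM in WT replicate 2, against 2.58 CPM in WT replicate 1. Levels are normalised counts (CPM, counts per fixed library size after scaling between libraries). They do not correct for gene length and so compare libraries, not genes.

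In G0APOL1 kidneys, set against WT kidneys, rises outnumbered falls in the lists of the proximal tubule and the distal convoluted tubule. Falls outnumbered rises in the lists of the collecting duct, inner medulla, urothelium, endothelium, mural cells, matrix, macrophages and interferon response. Some called genes belong to several lists, among them Slc22a6, Slc22a8, Slc22a12, Slc7a8, Fbp1, Cd74, Klk1 and Cyp4a14, so the lists are not separate results. Of 14386 tested genes, 1175 passed edgeR's quasi-likelihood test at an adjusted p under 0.05 (8.17%), and every adjusted p given here is from this test. Of these, 645 were higher in G0APOL1 (4.48% of tested genes) and 530 were lower (3.68%). At an unadjusted p under 0.05 there were 3242. The fit held all 6 libraries, and with only the 4 compared libraries fitted 658 genes passed, 297 of them higher. The G0APOL1 and WT libraries did not overlap in CPM in all 1175 called genes, but also in 7100 of all tested genes (49.4%), so a lack of overlap alone sets no gene apart. The median log2 fold change over all tested genes was 0.02. The rises were smaller than the falls: among genes with more than 3 counts in each group, the median log2 fold change was 1.07 for 638 higher genes (quartiles 0.88 and 1.41) and -1.62 for 509 lower genes (quartiles -2.06 and -1.17). At least 4-fold were 53 of the higher and 147 of the lower genes. The higher genes lay at higher levels: of 1490 genes with a mean of 100 CPM or more, 250 rose and 51 fell, whereas of 4824 genes between 1 and 10 CPM, 42 rose and 137 fell. Gene lists were not matched for level, so their counts of rises and falls are to be read beside these. Called genes came from all chromosomes with at least 100 tested genes, at 5.70% (chromosome X) to 11.6% (chromosome 19). Single libraries weighed on these counts. Of the 1175 calls, 342 (29.1%) remained whichever of the 6 libraries was left out. Without G0APOL1 replicate 1, 599 genes passed, and without G0APOL1 replicate 2, 663. The higher genes numbered 1116 without WT replicate 1.

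**Figure D1:**
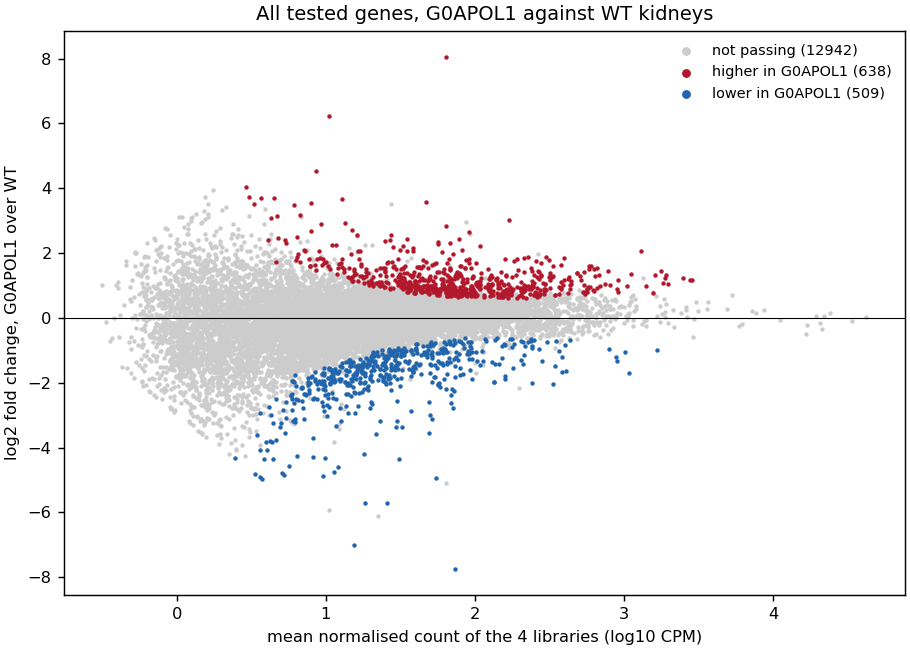
Each point is a tested gene: the x axis is the mean CPM of the 4 libraries on a log10 scale and the y axis the fitted log2 fold change of G0APOL1 over WT. Red points are the 638 genes higher and blue points the 509 genes lower in G0APOL1 at an adjusted p under 0.05. Grey points did not pass, and 297 genes with 3 or fewer counts in a group are not drawn. Drawn values run from -7.75 to 8.05, with a median of 1.07 for red and -1.62 for blue points. Red points lie mostly further to the right.

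The largest rises included genes that were close to silent in WT kidneys. Azgp1, which encodes zinc-alpha-2-glycoprotein, a secreted protein that acts on fat, lies at chr5:137981520-137990233 (GRCm38, as for all positions) and had 112 and 142 CPM in G0APOL1 libraries, against 0.892 and 0 CPM in WT libraries (log2 fold change 8.05 ± 0.52, adjusted p = 3.75e-05). It was as high in G2APOL1 libraries, with 137 and 123 CPM. Dpys, the pyrimidine-degrading enzyme dihydropyrimidinase at chr15:39768487-39857470, had 18.6 and 18.7 CPM in G0APOL1 libraries, against 0 and 0 CPM in WT libraries, at least 119-fold higher against a floor of 3 counts over the WT group (adjusted p = 5.85e-05). The groups did not overlap in either gene. Kcnj2, an inward rectifier potassium channel, had 8.75 and 32.6 CPM in G0APOL1 libraries, against 0 and 0.549 CPM in WT libraries (log2 fold change 6.22 ± 0.95, adjusted p = 0.00299), and the G0APOL1 libraries themselves differed several times over. Cpn1, the catalytic subunit of carboxypeptidase N, had 16.9 and 16.0 CPM in G0APOL1 libraries, against 0 and 1.43 CPM in WT libraries (log2 fold change 4.54 ± 0.92, adjusted p = 0.0118). Gys2, the liver form of glycogen synthase, had 6.08 and 10.8 CPM in G0APOL1 libraries, against 0.397 and 0.879 CPM in WT libraries (log2 fold change 3.71 ± 0.65, adjusted p = 0.00409). The arachidonic acid epoxygenase Cyp2c23 had 27.5 and 20.2 CPM in G0APOL1 libraries, against 0.397 and 3.41 CPM in WT libraries (log2 fold change 3.66 ± 0.69, adjusted p = 0.00815). Cpn1 and Cyp2c23 did not pass without G0APOL1 replicate 1, and limma-voom did not call Kcnj2 and Gys2.

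Reep3, a membrane protein that keeps the endoplasmic reticulum away from chromosomes in dividing cells, was at trace level or 0 outside the G0APOL1 libraries. Located at chr10:67009189-67096945, it had 80.9 and 69.9 CPM in G0APOL1, 0 and 0 CPM in G2APOL1 and 0.297 and 0 CPM in WT libraries. WT replicate 1 held 3 counts of the gene and the other WT library and both G2APOL1 libraries held none, so the level in G0APOL1 was 484-fold higher than in WT (95% exact interval of counting error 165 to 2350.1) and at least 530.5-fold higher than in G2APOL1 (edgeR adjusted p = 6.86e-06 and 3.12e-06). Other genes overlap 11% of its exon length on the opposite strand, whose reads cannot be told apart where counting does not use strand.

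The largest falls took genes to 0 or near it in G0APOL1 kidneys. Vcan, the matrix proteoglycan versican, had 0 and 0 CPM in G0APOL1 libraries, against 9.72 and 7.03 CPM in WT libraries, at least 50.2-fold lower (adjusted p = 0.00895, and not called by DESeq2). Rbp7, a retinoid-binding protein of endothelial cells, had 0 and 0 CPM in G0APOL1 libraries, against 7.14 and 7.03 CPM in WT libraries, at least 42.1-fold lower (adjusted p = 0.00603). The replication-dependent histone gene Hist1h2bq was at 0 in both G0APOL1 libraries, against 11.3 and 7.03 CPM in WT libraries (adjusted p = 0.00289), but 7 near-identical histone genes also had counts, and summed with them the log2 ratio was 0.28 in the other direction. Igfbp2, a binding protein of insulin-like growth factors, had 0.213 and 1.18 CPM in G0APOL1 libraries, against 57.2 and 14.7 CPM in WT libraries (log2 fold change -5.70 ± 0.82, adjusted p = 0.00305). Fcgbp, a mucin-like protein of epithelia, had 0.854 and 1.06 CPM in G0APOL1 libraries, against 85.1 and 16.7 CPM in WT libraries (log2 fold change -5.72 ± 0.84, adjusted p = 0.00625), and its call was lost when any of the 4 transgenic libraries was left out. For both, the WT libraries differed from each other several times over, and limma-voom did not call either gene.

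The smallest p of all fell on Rps3a3, a processed pseudogene of a ribosomal protein gene, with 1.07 and 0.237 CPM in G0APOL1 libraries, against 144 and 149 CPM in WT libraries (log2 fold change -7.75 ± 0.40, adjusted p = 6.02e-07). Summed with the other genes of the family, 3 in all, the level was 444 and 431 CPM in G0APOL1 libraries, against 496 and 509 CPM in WT libraries, a log2 ratio of -0.20. Among genes without such copies, several falls were large next to the spread within each pair. Spon1, the matrix protein spondin 1 at chr7:113765998-114043370, had 22.9 and 13.6 CPM in G0APOL1 libraries, against 121 and 129 CPM in WT libraries (log2 fold change -2.77 ± 0.26, adjusted p = 6.3e-05). Nccrp1, an F-box-like protein of epithelia at chr7:28543596-28547254, had 26.5 and 23.8 CPM in G0APOL1 libraries, against 117 and 114 CPM in WT libraries (log2 fold change -2.20 ± 0.19, adjusted p = 4.37e-05). The calcium-binding protein S100a6 had 8.97 and 12.3 CPM in G0APOL1 libraries, against 119 and 65.8 CPM in WT libraries (log2 fold change -3.12 ± 0.32, adjusted p = 0.000167). In all 3 the higher G0APOL1 library was below the lower WT library by more than the spread within either pair, and the calls held whichever library was left out.

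The proximal tubule list had the most rises. Of its 28 genes, all tested, 17 rose and 11 missed the threshold (median log2 fold change 0.99), against 8.17% called and a median of 0.02 over all genes. Gatm, the first enzyme of creatine synthesis, at chr2:122594467-122611303, had 162 and 155 CPM in G0APOL1 libraries, against 21.02 and 29.2 CPM in WT libraries, 6.31-fold higher in G0APOL1 (log2 fold change 2.66 ± 0.21, adjusted p = 2.37e-05). Lrp2, the endocytic receptor megalin at chr2:69424340-69586065, had 1227 and 1066 CPM in G0APOL1 libraries, against 477 and 363 CPM in WT libraries (log2 fold change 1.45 ± 0.21, adjusted p = 0.00139). Its adaptor Dab2 had 394 and 314 CPM in G0APOL1 libraries, against 148 and 113 CPM in WT libraries (log2 fold change 1.43 ± 0.20, adjusted p = 0.00111). The G0APOL1 libraries were above both WT libraries in each of these genes, by more than the spread within a pair. The organic anion transporter Slc22a8, at chr19:8591254-8611835, had 636 and 604 CPM in G0APOL1 libraries, against 143 and 204 CPM in WT libraries (log2 fold change 1.84 ± 0.21, adjusted p = 0.000293). The neutral amino acid exchanger Slc7a8 had 54.0 and 70.0 CPM in G0APOL1 libraries, against 11.5 and 18.0 CPM in WT libraries (log2 fold change 2.07 ± 0.28, adjusted p = 0.000801). The 17 also held the receptor Cubn, the phosphate transporters Slc34a1 and Slc34a3, the glucose transporter Slc5a2 and the transcription factor Hnf4a. Of these, Cubn and Hnf4a did not pass without G0APOL1 replicate 1, nor Cubn without WT replicate 2, nor Slc34a3 and Slc5a2 without WT replicate 1 or G0APOL1 replicate 2, nor Slc34a3 without either G2APOL1 library. The summed level of the list overlapped between the groups, at 60202 and 51103 CPM in G0APOL1 libraries, against 57469 and 35760.0 CPM in WT libraries. Such a sum follows its most abundant members, whereas by gene 25 of the 28 had a positive log2 fold change and 3 a negative one. Between 10 members (without G0APOL1 replicate 1) and 18 (without WT replicate 1) rose when 1 library was left out, and 9 when only the 4 compared libraries were fitted.

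Proximal tubule genes are under the control of the transcription factors HNF1 and HNF4, and promoter sequences of RefSeq (GRCm38.p6) were searched for letters they are known to bind. In the 250 bases before the start, the HNF1 letters GTTAATNAT were found on either strand in 16 of 493 genes that rose and have a promoter in the table (3.25%), 2 of 377 that fell (0.531%), 70 of 10754 tested (0.651%) and 234 of 27025 genes in all (0.866%). The HNF4 letters CAAAGTCCA were found in 5 that rose (1.01%), 0 that fell and 0.446% of tested genes. Shares in genes that rose, genes that fell and tested genes were 10.3%, 6.90% and 9.75% for the E-box CACGTG, 1.42%, 0.531% and 0.595% for the D-box TTATGTAA, 12.2%, 11.9% and 8.25% for the TATA box TATAAA, and 6.90%, 10.1% and 7.59% for the interferon element GAAANNGAA. These are matches of letters, not bound sites, and the differences were not tested. The 16 genes included Ugt1a9, G6pc and Kcnj16, described with their levels elsewhere in the text. None of the 16 was among the 17 genes of the proximal tubule list that rose. The promoters of the 4 with the smallest p are shown so that the match can be seen in place, in the direction of transcription, ending at the base before the RefSeq start, with the HNF1 letters in capitals (in Ugt1a9 as the reverse complement).
Ugt1a9, chr1:88070529-88070778, plus strand: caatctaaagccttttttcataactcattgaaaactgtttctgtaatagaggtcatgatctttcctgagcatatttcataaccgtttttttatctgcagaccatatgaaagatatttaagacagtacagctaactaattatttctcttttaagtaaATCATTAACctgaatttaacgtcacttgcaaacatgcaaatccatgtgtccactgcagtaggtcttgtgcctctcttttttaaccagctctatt
Habp2, chr19:56287662-56287911, plus strand: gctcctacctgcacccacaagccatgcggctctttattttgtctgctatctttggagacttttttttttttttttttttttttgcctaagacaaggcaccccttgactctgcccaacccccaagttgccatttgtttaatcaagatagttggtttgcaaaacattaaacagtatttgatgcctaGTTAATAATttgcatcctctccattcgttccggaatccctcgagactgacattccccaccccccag
Atp6v0a4, chr6:38124587-38124836, minus strand: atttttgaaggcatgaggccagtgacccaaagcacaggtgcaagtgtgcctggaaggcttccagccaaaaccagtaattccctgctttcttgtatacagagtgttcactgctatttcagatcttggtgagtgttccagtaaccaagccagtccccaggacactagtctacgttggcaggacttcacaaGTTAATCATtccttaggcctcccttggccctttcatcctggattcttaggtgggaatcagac
G6pc, chr11:101367466-101367715, plus strand: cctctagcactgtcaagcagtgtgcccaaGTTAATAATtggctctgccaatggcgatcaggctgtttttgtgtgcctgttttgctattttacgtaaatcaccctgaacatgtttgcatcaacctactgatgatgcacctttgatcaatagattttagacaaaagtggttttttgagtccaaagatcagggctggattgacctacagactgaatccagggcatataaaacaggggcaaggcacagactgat
In these 4 promoters the match begins 94, 66, 62 and 221 bases before the start.

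Among transporters and enzymes that clear drugs and steroids, rises outnumbered falls in G0APOL1 kidneys. Of 21 tested organic ion and drug transporters, 10 rose and 1 fell (52.4% called, against 8.17% of all tested genes), with a median log2 fold change of 0.89. Slc22a6, Slc22a8 and Slc22a12 were also among the proximal tubule genes that rose. Abcc2, an export pump for conjugated anions on the luminal side at chr19:43782192-43840740, had 167 and 188 CPM in G0APOL1 libraries, against 34.7 and 40.9 CPM in WT libraries (log2 fold change 2.23 ± 0.20, adjusted p = 4.21e-05). Slc22a28, an anion transporter of rodents, had 116 and 112 CPM in G0APOL1 libraries, against 37.6 and 20.4 CPM in WT libraries (log2 fold change 1.97 ± 0.25, adjusted p = 0.000536; log2 ratio 0.80 when summed with its near-identical copy Slc22a30). The exception was Abcc4, another export pump of the luminal membrane, with 10.2 and 10.1 CPM in G0APOL1 libraries, against 41.0 and 38.2 CPM in WT libraries (log2 fold change -1.96 ± 0.28, adjusted p = 0.00111). The rises numbered 4 without G0APOL1 replicate 1 and 6 without G0APOL1 replicate 2, and the median was 0.57 without WT replicate 2. Of 23 tested drug and steroid enzymes, 9 rose (39.1%, against 4.48% of all tested genes) and the other 14 missed the threshold. Their median was 0.80 (0.44 without G0APOL1 replicate 1 and 0.51 without WT replicate 2). Hsd3b3, a steroid dehydrogenase at chr3:98741523-98763127, had 82.1 and 92.8 CPM in G0APOL1 libraries, against 8.33 and 6.26 CPM in WT libraries (log2 fold change 3.58 ± 0.25, adjusted p = 6.86e-06; log2 ratio 0.92 with its near-identical copy Hsd3b2). The monooxygenases Fmo1 and Fmo2 rose 2.25-fold and 2.64-fold: Fmo2 had 308 and 309.8 CPM in G0APOL1 libraries, against 99.95 and 134 CPM in WT libraries (adjusted p = 0.001). Fmo1 had 583 and 509.5 CPM in G0APOL1 libraries, against 234 and 252 CPM in WT libraries (adjusted p = 0.00224). Cyp2d12, a cytochrome P450, had 85.4 and 140.0 CPM in G0APOL1 libraries, against 18.0 and 27.4 CPM in WT libraries (log2 fold change 2.31 ± 0.29, adjusted p = 0.000613). Cyp4a31, a fatty acid hydroxylase at chr4:115563649-115579015, had the smallest p of all genes that rose, with 313 and 290.0 CPM in G0APOL1 libraries, against 41.7 and 32.5 CPM in WT libraries, 8.11-fold higher (log2 fold change 3.02 ± 0.20, adjusted p = 6.86e-06). Ugt1a9, a glucuronidating enzyme whose gene spans chr1:88070800-88218997, had 51.7 and 21.9 CPM in G0APOL1 libraries, against 0 and 0 CPM in WT libraries, at least 240.1-fold higher (adjusted p = 3.75e-05, not called by limma-voom), but the genes of the cluster share their last exons. Summed over 9 of them the level was 698 and 667 CPM in G0APOL1 libraries, against 345 and 240 CPM in WT libraries, a log2 ratio of 1.22.

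Of 26 tested genes of fatty acid oxidation, 10 rose (38.5%) and 16 missed the threshold (median log2 fold change 0.63). Among all tested genes 4.48% rose, and among those with a mean of 100 CPM or more 16.8%. Acaa1b, a peroxisomal thiolase, had 458 and 423 CPM in G0APOL1 libraries, against 189.6 and 199.7 CPM in WT libraries (log2 fold change 1.18 ± 0.18, adjusted p = 0.0018; log2 ratio 1.04 with its near-identical copy Acaa1a). The carnitine transporter Slc22a5 had 154 and 176 CPM in G0APOL1 libraries, against 89.0 and 84.8 CPM in WT libraries (log2 fold change 0.93 ± 0.18, adjusted p = 0.00641). Hadh, of the mitochondrial cycle, and Ehhadh, of the peroxisomal one, rose 2.50-fold and 2.27-fold (adjusted p = 0.01 and 0.0117), but Hadh did not pass without G0APOL1 replicate 2, nor Ehhadh without G0APOL1 replicate 1. The list's rises numbered 4 without G0APOL1 replicate 1, 3 without G0APOL1 replicate 2 and 4 with the 4 compared libraries alone. Of 18 tested amino acid transporters, 6 rose (33.3%) and 12 did not pass. The rises numbered 3 without either G0APOL1 library or either G2APOL1 library. Among the 6 was the imino acid transporter Slc6a20b, with 295 and 279 CPM in G0APOL1 libraries, against 151 and 132 CPM in WT libraries (log2 fold change 1.02 ± 0.18, adjusted p = 0.00408). The glutamate transporter Slc1a1 had 311 and 287 CPM in G0APOL1 libraries, against 169 and 156 CPM in WT libraries (log2 fold change 0.88 ± 0.18, adjusted p = 0.009), a call lost without G0APOL1 replicate 1. Genes on the opposite strand overlap 21% of the exon length of Slc6a20b and 32% of that of Slc1a1.

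Of 18 tested glucose handling genes, 5 rose and 2 fell (median 0.21). The rises numbered 2 without G0APOL1 replicate 2 and 3 without any other library but WT replicate 1. No fall passed with edgeR without any of the transgenic libraries, and 1 did without WT replicate 2. G6pc, the last step of gluconeogenesis, had 260.0 and 453 CPM in G0APOL1 libraries, against 107 and 86.0 CPM in WT libraries (log2 fold change 1.89 ± 0.25, adjusted p = 0.000825). Slc2a2, the glucose exit transporter, had 50.7 and 68.5 CPM in G0APOL1 libraries, against 6.94 and 15.2 CPM in WT libraries (log2 fold change 2.43 ± 0.33, adjusted p = 0.000936). Pck1, the rate-limiting step of gluconeogenesis, had 3023 and 4669 CPM in G0APOL1 libraries, against 1706 and 1683 CPM in WT libraries (log2 fold change 1.18 ± 0.24, adjusted p = 0.00951), and its call was lost without G0APOL1 replicate 2, its higher library. Pkm, the pyruvate kinase of glycolysis, had 262 and 263 CPM in G0APOL1 libraries, against 435 and 434 CPM in WT libraries (log2 fold change -0.73 ± 0.18, adjusted p = 0.0225), and did not pass when any transgenic library was left out. With near-identical copies its log2 ratio was also -0.73. Of 23 tested cholesterol synthesis genes, 3 rose (13.0%, median 0.56), against 4.48% of all tested genes and 16.8% of those with a mean of 100 CPM or more. This share does not set the cholesterol list apart. Without G0APOL1 replicate 1 the median was 0.05 and 1 rose; 1 also rose without WT replicate 2 or either G2APOL1 library, and 5 without G0APOL1 replicate 2. Among the 3 was the sterol dehydrogenase Nsdhl, with 85.0 and 73.8 CPM in G0APOL1 libraries, against 48.9 and 51.4 CPM in WT libraries (log2 fold change 0.66 ± 0.18, adjusted p = 0.0425), which did not pass when any library was left out. Among nuclear respiratory chain genes, 3 of 26 rose (11.5%), with a median of 0.06. Of all tested genes 4.48% rose, and of those with a mean of 100 CPM or more 16.8%, so this share does not set the list apart. The rises numbered 6 without WT replicate 1 and 1 without any other library. Sdha, the flavoprotein of complex II, had 476 and 440.2 CPM in G0APOL1 libraries, against 217 and 135 CPM in WT libraries (log2 fold change 1.38 ± 0.23, adjusted p = 0.0028), and Ndufs1, of complex I, rose 1.76-fold (adjusted p = 0.0219) but passed only with all libraries or without WT replicate 1. None of 13 tested mitochondrial genome transcripts passed with edgeR (1 lower at an unadjusted p under 0.05; 2 with DESeq2 and 0 with limma-voom), but 2 rose without WT replicate 2 and 1 fell without WT replicate 1.

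Of 14 tested genes of the distal convoluted and connecting tubule, 6 rose and 1 fell, with a median log2 fold change of 1.34. The fall passed neither without WT replicate 2 nor without any transgenic library. The list summed to 4741 and 4793 CPM in G0APOL1 libraries, against 1754 and 2441 CPM in WT libraries. Calb1, the calcium buffer calbindin, at chr4:15881264-15908064, had 506 and 470.2 CPM in G0APOL1 libraries, against 127 and 157 CPM in WT libraries (log2 fold change 1.78 ± 0.20, adjusted p = 0.000242). Tmem52b, a membrane protein enriched in the distal tubule, had 98.2 and 91.2 CPM in G0APOL1 libraries, against 10.8 and 26.6 CPM in WT libraries (log2 fold change 2.34 ± 0.34, adjusted p = 0.00236). Klk1, tissue kallikrein, which releases kinins, had 2753 and 2503 CPM in G0APOL1 libraries, against 929 and 1299.7 CPM in WT libraries (log2 fold change 1.24 ± 0.23, adjusted p = 0.00547; log2 ratio 1.24 with its near-identical copy Klk1b5). The calcium-binding protein Pvalb had 39.7 and 33.8 CPM in G0APOL1 libraries, against 10.6 and 16.4 CPM in WT libraries (log2 fold change 1.45 ± 0.29, adjusted p = 0.00886), but not past the threshold without G0APOL1 replicate 1. Slc12a3, the thiazide-sensitive sodium chloride cotransporter that defines the segment, had 224 and 628 CPM in G0APOL1 libraries, against 72.5 and 143 CPM in WT libraries and did not pass (log2 fold change 1.98 ± 0.60, adjusted p = 0.14), and the groups did not overlap, as in 49.4% of tested genes. In the thick ascending limb, 2 of 11 tested genes rose and 3 fell (median -0.48). By contrast, the list's sum was higher in G0APOL1 libraries, at 5036 and 5220 CPM, against 4231 and 4329 CPM in WT libraries. The falls numbered 1 without G0APOL1 replicate 1 or either G2APOL1 library, the rises 1 without G0APOL1 replicate 2, and the median was -0.09 without WT replicate 1. Egf, the precursor of epidermal growth factor, at chr3:129677565-129755316, had 824 and 938 CPM in G0APOL1 libraries, against 307 and 269.6 CPM in WT libraries (log2 fold change 1.61 ± 0.20, adjusted p = 0.000375). Wnk1, a kinase that controls chloride cotransporters, had 215 and 287 CPM in G0APOL1 libraries, against 78.3 and 132 CPM in WT libraries (log2 fold change 1.25 ± 0.25, adjusted p = 0.00917; not passing without G0APOL1 replicate 2). The phosphatase inhibitor Ppp1r1b had 27.2 and 48.8 CPM in G0APOL1 libraries, against 99.1 and 95.5 CPM in WT libraries (log2 fold change -1.36 ± 0.26, adjusted p = 0.00641; 16% of its exon length overlapped on the opposite strand). The segment's defining genes did not pass: the sodium-potassium-chloride cotransporter Slc12a1 had 494 and 612 CPM in G0APOL1 libraries, against 688 and 971 CPM in WT libraries (adjusted p = 0.168). Uromodulin, Umod, had 2960.2 and 2849 CPM in G0APOL1 libraries, against 2356 and 2213 CPM in WT libraries (adjusted p = 0.368).

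Of 12 tested collecting duct principal cell genes, 5 fell (median -0.90), and 3 without G0APOL1 replicate 2 (median -0.54). The list summed to 1365 and 907 CPM in G0APOL1 libraries, against 2907 and 2194 CPM in WT libraries. Aqp2, the vasopressin-regulated water channel at chr15:99579055-99584547, had 625 and 379 CPM in G0APOL1 libraries, against 2046 and 1250.5 CPM in WT libraries (log2 fold change -1.71 ± 0.28, adjusted p = 0.00289). The basolateral water channel Aqp4 had 39.8 and 41.4 CPM in G0APOL1 libraries, against 171 and 131 CPM in WT libraries (log2 fold change -1.90 ± 0.20, adjusted p = 0.000175). Fxyd4, a regulator of the sodium pump, had 26.5 and 21.6 CPM in G0APOL1 libraries, against 111 and 57.8 CPM in WT libraries (log2 fold change -1.81 ± 0.31, adjusted p = 0.00386). The transcription factor Elf5 had 7.37 and 3.90 CPM in G0APOL1 libraries, against 28.6 and 21.3 CPM in WT libraries (log2 fold change -2.14 ± 0.44, adjusted p = 0.00974; not passing without G0APOL1 replicate 2). Scnn1a, a subunit of the epithelial sodium channel of the same cells, had 180.2 and 139 CPM in G0APOL1 libraries, against 61.7 and 123 CPM in WT libraries and did not pass (adjusted p = 0.118). Of 11 tested genes of the inner medulla and osmolyte handling, 5 fell (median -1.84). The median was -0.86 without WT replicate 1, and 3 fell without G0APOL1 replicate 2. The urea transporters Slc14a2 and Slc14a1 fell 3.58-fold and 6.51-fold (adjusted p = 0.00143 and 0.00503): Slc14a2 had 12.6 and 15.1 CPM in G0APOL1 libraries, against 57.2 and 42.1 CPM in WT libraries and Slc14a1 had 5.44 and 1.77 CPM in G0APOL1 libraries, against 24.4 and 23.1 CPM in WT libraries. The betaine transporter Slc6a12 fell 5.12-fold (adjusted p = 0.00906), but not past the threshold without either G0APOL1 library. Among 14 tested intercalated cell genes, 2 rose and 1 fell (median 0.06). The rises numbered 5 without WT replicate 2 (median 0.57) and 1 without G0APOL1 replicate 1 (median -0.14), and 2 fell without WT replicate 1 (median -0.25). Slc26a4, the chloride-bicarbonate exchanger pendrin of type B cells at chr12:31519827-31559969, had 50.1 and 42.5 CPM in G0APOL1 libraries, against 9.62 and 10.8 CPM in WT libraries (log2 fold change 2.18 ± 0.26, adjusted p = 0.000377). Slc4a1, the exchanger of type A cells, had 22.2 and 32.4 CPM in G0APOL1 libraries, against 53.9 and 66.8 CPM in WT libraries (log2 fold change -1.15 ± 0.27, adjusted p = 0.0203), a call lost without WT replicate 2 or G0APOL1 replicate 1.

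Of 10 tested urothelial genes, which mark the lining of the renal pelvis, 5 fell, all 10 had a negative log2 fold change, and the median was -2.81. The falls numbered 3 without WT replicate 1 or G0APOL1 replicate 1. The list summed to 14.8 and 29.3 CPM in G0APOL1 libraries, against 208 and 123 CPM in WT libraries, so the groups did not overlap. The uroplakin Upk2 had 1.28 and 0.591 CPM in G0APOL1 libraries, against 18.5 and 27.8 CPM in WT libraries (log2 fold change -4.60 ± 0.59, adjusted p = 0.000536). Upk3b had 0.320 and 1.30 CPM in G0APOL1 libraries, against 23.4 and 8.02 CPM in WT libraries (log2 fold change -4.28 ± 0.73, adjusted p = 0.00344; not called by limma-voom). How much pelvis and medulla each piece of tissue held is not recorded in the labels, and the part of that in the differences between segments was not tested.

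**Figure D2:**
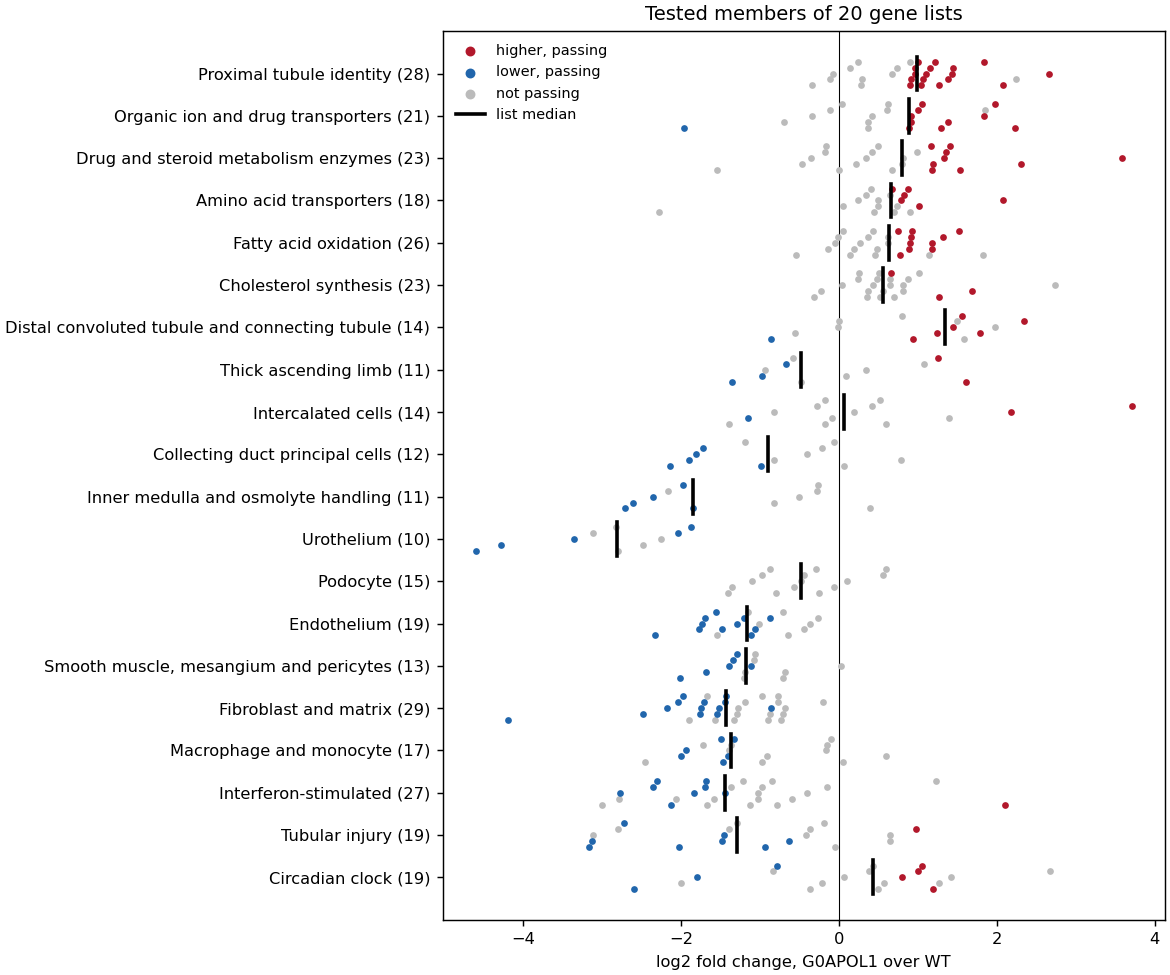
Log2 fold changes of G0APOL1 over WT for the tested members of 20 gene lists, with the number tested after each name; 368 members are drawn and 1 with 3 or fewer counts in a group is not. Red points rose and blue points fell at an adjusted p under 0.05, grey points did not pass, and black bars are list medians, from 1.34 for the distal convoluted tubule to -2.81 for the urothelium.

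Of 19 tested endothelial genes, 11 fell, all 19 had a negative log2 fold change, and the median was -1.16. The list summed to 539 and 449 CPM in G0APOL1 libraries, against 1037 and 1196 CPM in WT libraries. Emcn, the sialomucin endomucin at chr3:137341067-137432185, had 33.5 and 26.7 CPM in G0APOL1 libraries, against 102 and 98.6 CPM in WT libraries (log2 fold change -1.73 ± 0.20, adjusted p = 0.000335). Plvap, a component of the diaphragms of fenestrated capillaries at chr8:71497765-71511752, had 100.02 and 82.4 CPM in G0APOL1 libraries, against 267 and 269.5 CPM in WT libraries (log2 fold change -1.56 ± 0.19, adjusted p = 0.00037). Within each pair the libraries were close. The junction proteins Cdh5 and Esam fell 3.42-fold and 2.30-fold, with 14.4 and 9.46 CPM in G0APOL1 libraries, against 39.7 and 42.2 CPM in WT libraries for Cdh5 (adjusted p = 0.00293) and 29.1 and 28.9 CPM in G0APOL1 libraries, against 72.2 and 61.3 CPM in WT libraries for Esam (adjusted p = 0.00531). Nos3, the endothelial nitric oxide synthase, had 4.59 and 3.78 CPM in G0APOL1 libraries, against 11.0 and 13.4 CPM in WT libraries and missed the threshold (log2 fold change -1.54 ± 0.45, adjusted p = 0.0513; 32% of its exon length overlapped on the opposite strand). Of 8 tested genes of endothelial activation, 5 fell (median -2.73). The falls numbered 2 without G0APOL1 replicate 2 and 3 without G0APOL1 replicate 1 or WT replicate 2. Angpt2, an antagonist of the receptor Tie2 released by endothelium, at chr8:18690263-18741562, had 5.34 and 3.78 CPM in G0APOL1 libraries, against 43.3 and 39.9 CPM in WT libraries (log2 fold change -3.18 ± 0.33, adjusted p = 0.000167). Vcam1, an adhesion molecule, had 11.7 and 4.38 CPM in G0APOL1 libraries, against 13.2 and 29.4 CPM in WT libraries (adjusted p = 0.116). Edn1, the precursor of endothelin 1, had 0.640 and 0 CPM in G0APOL1 libraries, against 4.36 and 4.83 CPM in WT libraries (adjusted p = 0.105), and neither passed. Without G0APOL1 replicate 2, 5 of the 19 endothelial genes fell, and without WT replicate 2, 8.

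Of 13 tested genes of smooth muscle, mesangium and pericytes, 6 fell (median -1.18), and 3 without G0APOL1 replicate 2. Tagln, the smooth muscle protein transgelin, had 31.9 and 31.8 CPM in G0APOL1 libraries, against 71.6 and 89.8 CPM in WT libraries (log2 fold change -1.34 ± 0.21, adjusted p = 0.00192), but genes on the opposite strand overlap 68% of its exon length. Myl9, a myosin light chain, had 34.6 and 31.6 CPM in G0APOL1 libraries, against 96.5 and 77.6 CPM in WT libraries (log2 fold change -1.40 ± 0.20, adjusted p = 0.00127). Acta2, smooth muscle actin, and Rgs5, a pericyte regulator of G proteins, fell 2.17-fold and 2.44-fold (adjusted p = 0.00547 and 0.00594), and neither passed without G0APOL1 replicate 2. Of 29 tested fibroblast and matrix genes, 13 fell, all 29 had a negative log2 fold change, and the median was -1.43. Tnc, tenascin C, at chr4:63959785-64047015, had 1.71 and 2.01 CPM in G0APOL1 libraries, against 31.3 and 36.9 CPM in WT libraries (log2 fold change -4.19 ± 0.52, adjusted p = 0.000458). The matrix protein Sparc had 82.8 and 73.2 CPM in G0APOL1 libraries, against 163 and 259 CPM in WT libraries (log2 fold change -1.43 ± 0.22, adjusted p = 0.00192). The receptor Pdgfra, of fibroblasts, had 16.7 and 15.5 CPM in G0APOL1 libraries, against 39.3 and 48.2 CPM in WT libraries (log2 fold change -1.44 ± 0.27, adjusted p = 0.00547). The intermediate filament gene Vim had 49.4 and 31.3 CPM in G0APOL1 libraries, against 89.5 and 146 CPM in WT libraries (log2 fold change -1.54 ± 0.27, adjusted p = 0.00386). Col1a1, the main chain of collagen I, had 18.1 and 12.8 CPM in G0APOL1 libraries, against 23.3 and 92.2 CPM in WT libraries and did not pass (adjusted p = 0.118): WT replicate 1 lay near the G0APOL1 libraries and WT replicate 2 far above. The list summed to 1005 and 745 CPM in G0APOL1 libraries, against 1415 and 2645 CPM in WT libraries. It had 6 falls without WT replicate 2 (median -0.90), 4 without G0APOL1 replicate 2 and 19 without WT replicate 1. The calls of Tnc, Sparc, Pdgfra and Vim withstood the removal of any 1 library.

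**Figure D3:**
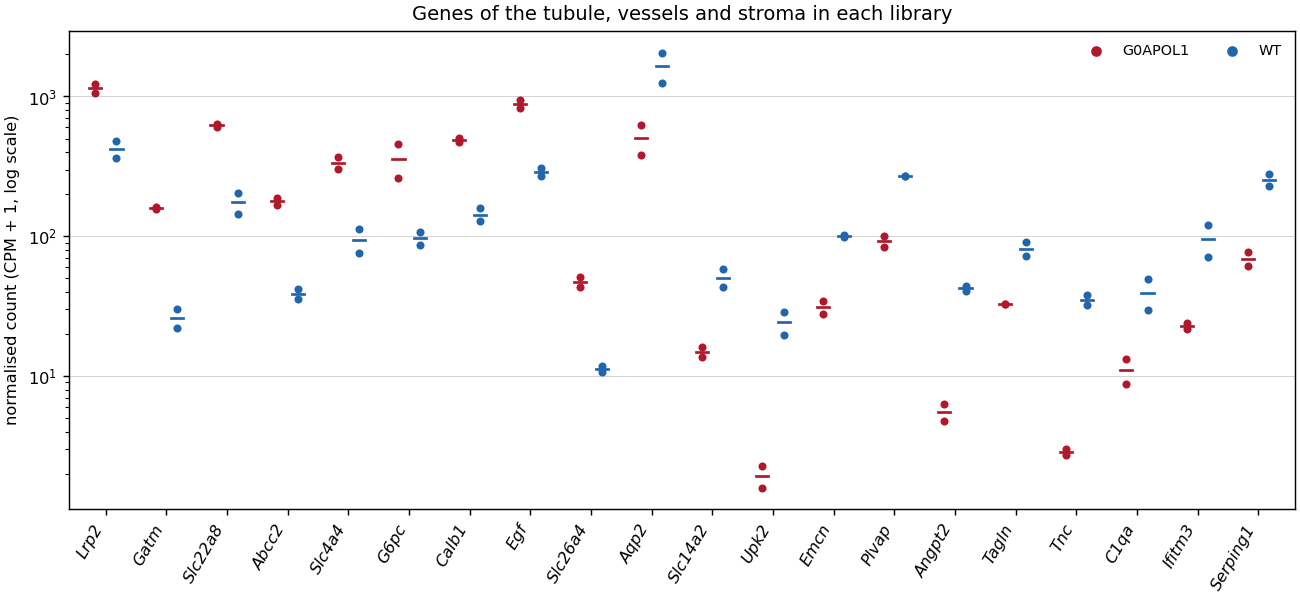
Normalised counts (CPM plus 1, log scale) of 20 named genes in each of the 2 G0APOL1 (red, left) and 2 WT (blue, right) libraries; bars are group means. Genes of the proximal and distal convoluted tubule, with Egf and Slc26a4, are higher in G0APOL1, and those from Aqp2 to Serping1 are lower.

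Of 17 tested macrophage and monocyte genes, 6 fell and 11 did not pass (median -1.36, and -0.77 without WT replicate 2). The list summed to 375 and 307 CPM in G0APOL1 libraries, against 564 and 1040.5 CPM in WT libraries. C1qa, a chain of complement C1q, had 7.79 and 12.3 CPM in G0APOL1 libraries, against 28.6 and 48.2 CPM in WT libraries (log2 fold change -1.94 ± 0.35, adjusted p = 0.00489). Lyz2, lysozyme of myeloid cells, had 23.5 and 17.9 CPM in G0APOL1 libraries, against 49.8 and 53.8 CPM in WT libraries (log2 fold change -1.32 ± 0.26, adjusted p = 0.00657; log2 ratio -1.28 with its near-identical copy Lyz1), and the endotoxin co-receptor Cd14 fell 4.01-fold (adjusted p = 0.0139); neither passed without G0APOL1 replicate 2, where 1 member of the list fell. Of 13 tested antigen presentation genes, 5 fell (median -1.05), but 1 without WT replicate 2 (median -0.39), none with edgeR without either G0APOL1 library, and 8 without WT replicate 1. Cd74, the invariant chain, had 216 and 150.4 CPM in G0APOL1 libraries, against 313 and 699.5 CPM in WT libraries (log2 fold change -1.47 ± 0.35, adjusted p = 0.0346). The class II chain H2-Eb1 had 59.8 and 58.5 CPM in G0APOL1 libraries, against 92.9 and 203 CPM in WT libraries (log2 fold change -1.32 ± 0.30, adjusted p = 0.0219). Of 7 tested lymphocyte genes, with a median of -1.61 (-0.35 without WT replicate 2), none passed with edgeR (0 at an unadjusted p under 0.05; 1 with DESeq2 and 0 with limma-voom). Of 27 tested interferon-stimulated genes, 8 fell, 1 rose and 18 did not pass (median -1.44). The falls numbered 5 without either G0APOL1 library and 8 without WT replicate 2, and the rise was lost without any of these 3 libraries. Ifitm3, which blocks entry of viruses, at chr7:141009586-141010770, had 22.8 and 20.7 CPM in G0APOL1 libraries, against 70.5 and 120.0 CPM in WT libraries (log2 fold change -2.13 ± 0.26, adjusted p = 0.000452). Ifit3 had 8.33 and 8.99 CPM in G0APOL1 libraries, against 32.9 and 28.6 CPM in WT libraries (log2 fold change -1.83 ± 0.32, adjusted p = 0.00386; log2 ratio -1.88 with its near-identical copy Ifit3b). Irf7, a transcription factor that amplifies interferon, and Ifi27, of mitochondria, fell 4.92-fold and 2.72-fold (adjusted p = 0.00544 and 0.00498).

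None of 12 tested NF-kB and cytokine genes passed with edgeR (5 lower at an unadjusted p under 0.05; 0 with DESeq2 and 0 with limma-voom), with a median of -0.73. None of 11 tested genes of the inflammasome, STING and lytic cell death passed either (3 lower at an unadjusted p under 0.05; 2 with DESeq2 and 0 with limma-voom), with a median of -0.59 (-1.42 without G0APOL1 replicate 2).

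Of 18 tested genes of complement, coagulation and the acute phase, 4 fell, 1 rose and 13 did not pass (median -0.86). The falls numbered 2 without WT replicate 2 or either G0APOL1 library and 7 without G2APOL1 replicate 1, the rise was lost without either G0APOL1 library, and the median was -0.54 without G0APOL1 replicate 2. Serping1, the inhibitor of complement C1, at chr2:84765387-84775444, had 76.3 and 59.96 CPM in G0APOL1 libraries, against 228 and 276 CPM in WT libraries (log2 fold change -1.89 ± 0.20, adjusted p = 0.000179). C3, the central complement component, had 1.71 and 2.72 CPM in G0APOL1 libraries, against 9.42 and 26.8 CPM in WT libraries (log2 fold change -3.03 ± 0.66, adjusted p = 0.0159), and Cp, ceruloplasmin, fell 2.14-fold (adjusted p = 0.0114); neither passed without WT replicate 2 or without either G0APOL1 library. The alpha-1 antitrypsin genes lie together on chromosome 12 and share reads. Serpina1b, at chr12:103728156-103830373, had 9.50 and 6.15 CPM in G0APOL1 libraries, against 91.7 and 91.1 CPM in WT libraries (log2 fold change -3.54 ± 0.29, adjusted p = 2.87e-05). Serpina1a had 1.39 and 0.946 CPM in G0APOL1 libraries, against 20.4 and 10.1 CPM in WT libraries (log2 fold change -3.69 ± 0.43, adjusted p = 0.00033). Summed over 5 copies, the level was 10.9 and 7.10 CPM in G0APOL1 libraries, 279 and 233 CPM in G2APOL1 libraries and 113 and 105 CPM in WT libraries, a log2 ratio of -3.60 for G0APOL1 over WT. The summed G2APOL1 values lay above the WT values and the G0APOL1 values below. Of 19 tested tubular injury genes, 8 fell, 1 rose and 10 did not pass (median -1.29, -0.75 without WT replicate 2 and -0.85 without G0APOL1 replicate 2). The keratin Krt18 had 24.98 and 20.3 CPM in G0APOL1 libraries, against 114 and 69.7 CPM in WT libraries (log2 fold change -2.02 ± 0.26, adjusted p = 0.000577). The annexin Anxa2 had 37.1 and 40.7 CPM in G0APOL1 libraries, against 129.9 and 86.8 CPM in WT libraries (log2 fold change -1.48 ± 0.23, adjusted p = 0.00184). The metalloproteinase inhibitor Timp2 had 34.2 and 31.5 CPM in G0APOL1 libraries, against 84.9 and 95.5 CPM in WT libraries (log2 fold change -1.46 ± 0.20, adjusted p = 0.000846). Lcn2, a siderophore-binding protein made by injured tubules, had 4.16 and 0.828 CPM in G0APOL1 libraries, against 21.1 and 24.4 CPM in WT libraries (log2 fold change -3.17 ± 0.63, adjusted p = 0.00917), whereas Havcr1, the proximal tubule injury marker KIM-1, was low in all libraries and did not pass, with 2.35 and 1.89 CPM in G0APOL1 libraries, against 1.49 and 1.21 CPM in WT libraries (adjusted p = 0.818). Clu, the chaperone clusterin, was the 1 that rose, with 319 and 329 CPM in G0APOL1 libraries, against 135 and 195 CPM in WT libraries (log2 fold change 0.97 ± 0.20, adjusted p = 0.0109; not passing without either G0APOL1 library). Krt18, Anxa2 and the calcium-binding S100a6 of this list are also known as genes of collecting duct or urothelial cells.

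**Figure D4:**
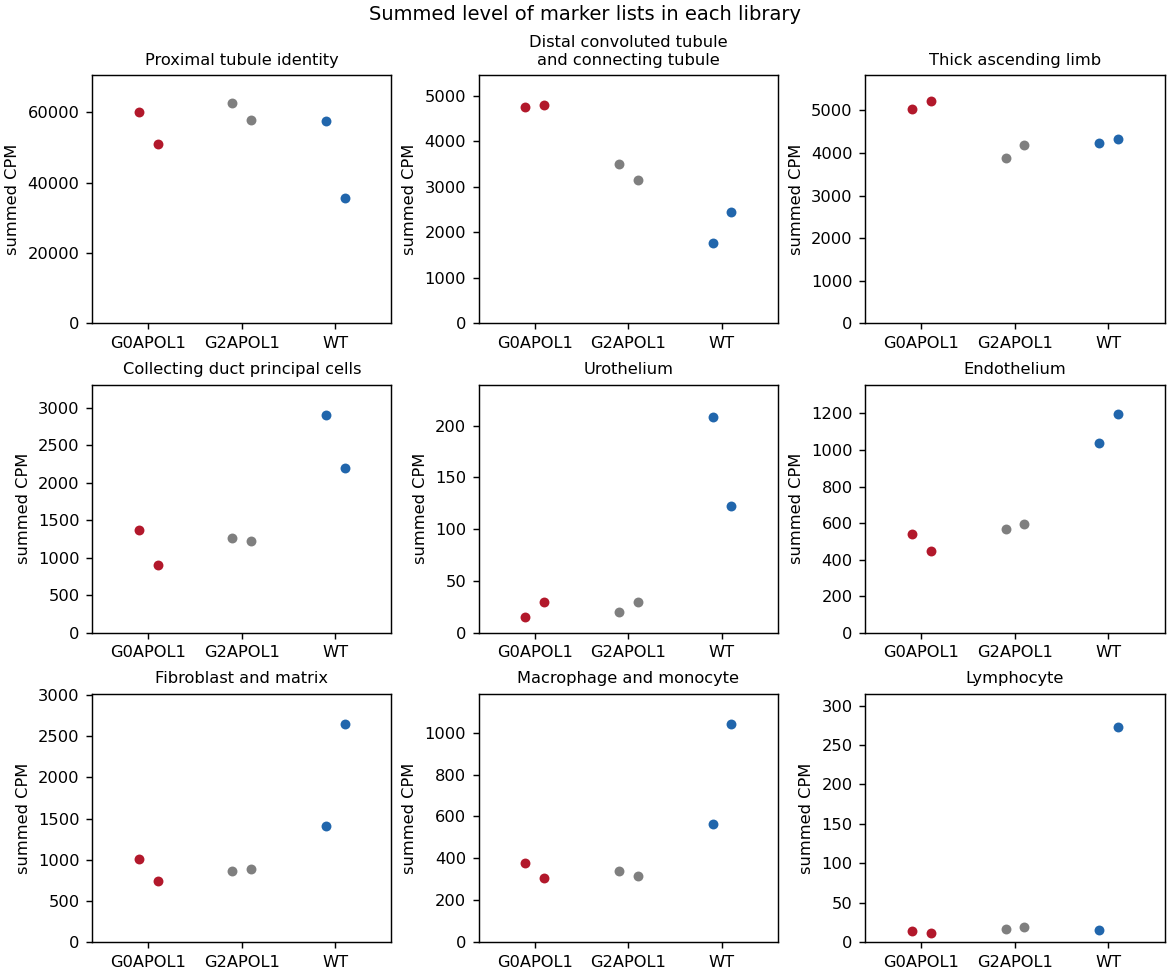
Summed CPM of all members of 9 marker lists in each library, with G0APOL1, G2APOL1 and WT from left to right and 1 point per library. Proximal tubule sums overlap between groups, distal convoluted tubule sums are highest in G0APOL1, urothelial, endothelial and collecting duct sums are highest in WT, and the lymphocyte sum is high in 1 WT library.

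The remaining cell type lists bear on what the tissue held. Of 7 tested red cell genes, 2 fell (median -0.68), and 1 without WT replicate 1 (median -0.21) or either G0APOL1 library; 1 rose without either WT library, and the median was -1.04 without WT replicate 2. Among the 2 was the alpha globin Hba-a1, with 521 and 500.0 CPM in G0APOL1 libraries, against 1390.2 and 1171 CPM in WT libraries (log2 fold change -1.33 ± 0.20, adjusted p = 0.00175); summed with its copy Hba-a2 the log2 ratio was -0.97. Neutrophil genes were near absent: 6 of 8, S100a8 and Ly6g among them, had 0 counts in every library. The adrenal list summed to 1.49 and 4.85 CPM in G0APOL1 libraries, against 3.07 and 3.74 CPM in WT libraries, with 5 of 7 genes at 0 in every library. The skeletal muscle list summed to 5.98 and 11.8 CPM in G0APOL1 libraries, against 20.5 and 28.7 CPM in WT libraries. Only 1 of its 7 genes was tested, Des, which fell and is also in the smooth muscle, mesangium and pericyte list. The adipocyte list summed to 299 and 213 CPM in G0APOL1 libraries, against 403 and 323 CPM in WT libraries, and 1 of 8 tested genes fell, a call lost without any of the 4 compared libraries. Of 15 tested podocyte genes none passed with edgeR (1 higher and 4 lower at an unadjusted p under 0.05; 0 with DESeq2 and 0 with limma-voom), with a median of -0.48. The podocyte median was 0.13 without WT replicate 2 and -1.02 without G0APOL1 replicate 1. Nphs1, the slit diaphragm protein nephrin, had 5.12 and 12.1 CPM in G0APOL1 libraries, against 6.15 and 9.89 CPM in WT libraries (adjusted p = 0.946), and the groups overlapped. The part of tissue composition in the gene groups above was not tested.

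Genes of salt handling and blood pressure were examined because the mice were fed salt with 1 kidney. Of 26 tested sodium transport genes, 7 rose and 2 fell (34.6%, against 8.17% of all tested genes), with a median log2 fold change of 0.38. All of these called genes but Slc4a4 and Kcnj16 also belong to the segment lists above, so the list is not a separate result. The rises numbered 4 without G0APOL1 replicate 2, and 1 fell without any of the transgenic libraries. Slc4a4, the basolateral sodium bicarbonate cotransporter of the proximal tubule at chr5:88886818-89239653, had 304 and 367 CPM in G0APOL1 libraries, against 111 and 75.2 CPM in WT libraries, 3.60-fold higher (log2 fold change 1.85 ± 0.22, adjusted p = 0.00033). Kcnj16, a potassium channel subunit of the basolateral membrane, had 449 and 440.3 CPM in G0APOL1 libraries, against 214 and 154 CPM in WT libraries (log2 fold change 1.27 ± 0.20, adjusted p = 0.00228). Of 14 tested genes of the renin-angiotensin-aldosterone axis, 1 rose and 13 did not pass (median 0.10), a share called of 7.14% against 8.17% of all tested genes. Without WT replicate 1, 4 rose and 1 fell (median 0.42). Mme, neprilysin, which degrades vasoactive peptides, had 150.0 and 131 CPM in G0APOL1 libraries, against 58.7 and 92.1 CPM in WT libraries (log2 fold change 0.90 ± 0.22, adjusted p = 0.0236), a call lost without WT replicate 1 or either G0APOL1 library. Ren1, renin, had 56.7 and 43.5 CPM in G0APOL1 libraries, against 51.3 and 160.1 CPM in WT libraries (adjusted p = 0.326), with both G0APOL1 libraries close to or below WT replicate 1 and WT replicate 2 far above. Agt, angiotensinogen, had 141 and 90.7 CPM in G0APOL1 libraries, against 124 and 111 CPM in WT libraries (adjusted p = 0.969), and the groups overlapped. Of 18 tested vasoactive genes, 2 fell and Klk1 rose (16.7% called, median -0.76, -0.31 without WT replicate 2 and -1.15 without WT replicate 1). Ptgs1, cyclooxygenase 1, had 15.5 and 13.6 CPM in G0APOL1 libraries, against 45.0 and 43.0 CPM in WT libraries (log2 fold change -1.60 ± 0.26, adjusted p = 0.0027). Ednrb, an endothelin receptor, had 13.0 and 7.69 CPM in G0APOL1 libraries, against 32.1 and 44.4 CPM in WT libraries (log2 fold change -1.88 ± 0.35, adjusted p = 0.00591; not passing without G0APOL1 replicate 2). Of 13 tested genes that respond to glucocorticoid or aldosterone, Errfi1, an inhibitor of the EGF receptor, rose 2.09-fold (adjusted p = 0.00641; not passing without G0APOL1 replicate 2) and the metallothionein Mt1 fell 2.04-fold (adjusted p = 0.0213; not passing without WT replicate 2 or either G0APOL1 library). Of this list 15.4% was called, against 8.17% of all tested genes and 20.2% of those with a mean of 100 CPM or more. The list's median was 0.17, and -0.69 without G0APOL1 replicate 2. Sgk1, the aldosterone-induced kinase, had 146 and 150.2 CPM in G0APOL1 libraries, against 198 and 95.3 CPM in WT libraries and did not pass (adjusted p = 0.99): both G0APOL1 libraries lay between the WT libraries.

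Of 19 tested clock genes, 4 rose and 3 fell (median 0.43), and the time of day of sampling is not given. The median was -0.04 without G0APOL1 replicate 2 and 0.70 without G0APOL1 replicate 1 or WT replicate 2. The rises numbered 1 without G0APOL1 replicate 1 and 2 without any other transgenic library. Nr1d1, the repressor REV-ERB alpha at chr11:98767932-98775333, had 13.3 and 14.5 CPM in G0APOL1 libraries, against 85.9 and 82.8 CPM in WT libraries, 6.05-fold lower (log2 fold change -2.60 ± 0.21, adjusted p = 2.87e-05). Dbp, a transcription factor of clock output, had 86.9 and 56.3 CPM in G0APOL1 libraries, against 253 and 244 CPM in WT libraries (log2 fold change -1.79 ± 0.22, adjusted p = 0.000452), although genes on the opposite strand overlap 18% of its exon length. Its relative Hlf had 119 and 114 CPM in G0APOL1 libraries, against 53.2 and 48.3 CPM in WT libraries (log2 fold change 1.20 ± 0.18, adjusted p = 0.00183). All 3 calls held whichever library was left out. Nr1d2, a second REV-ERB, fell 1.73-fold, and Bhlhe40 and Clock, transcription factors of the clock, rose 1.74-fold and 2.00-fold (adjusted p = 0.0333, 0.0206 and 0.0422 in that order). These 3 calls were weaker: Bhlhe40 did not pass without any of the transgenic libraries, Nr1d2 without any library but WT replicate 1, and Clock without any library.

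The shares of tested genes called in the stress lists were 14.3% for hypoxia, 21.1% for the unfolded protein and integrated stress response, 23.5% for glutathione and Nrf2 targets and 20.0% for immediate early genes, against 8.17% of all genes. The share called among all tested genes rose with level, from 3.71% between 1 and 10 CPM to 20.2% at a mean of 100 CPM or more. The lists were not matched for level, so these shares do not set them apart. Of 14 tested hypoxia genes, 1 rose and 1 fell (median 0.43). The fall was lost without any library other than WT replicate 2, 3 rose without WT replicate 1 (median 0.08), and the median was 0.00 without G0APOL1 replicate 2. Ndrg1, a gene induced by low oxygen and differentiation, at chr15:66929318-66969640, had 1524 and 2671 CPM in G0APOL1 libraries, against 534 and 479 CPM in WT libraries (log2 fold change 2.05 ± 0.26, adjusted p = 0.000536). Of 19 tested genes of the unfolded protein and integrated stress response, 4 rose (median 0.37). None passed with edgeR without G0APOL1 replicate 1, and 1 rose without either G2APOL1 library. Among the 4 was the transcription factor Xbp1, with 173 and 123 CPM in G0APOL1 libraries, against 75.8 and 59.9 CPM in WT libraries (log2 fold change 1.12 ± 0.21, adjusted p = 0.00625; not passing without G0APOL1 replicate 1). Of 17 tested glutathione and Nrf2 target genes, 3 rose and 1 fell (median 0.33). The rises numbered 6 without WT replicate 1, and 1 without WT replicate 2, G0APOL1 replicate 1 or either G2APOL1 library, and the fall was lost without G0APOL1 replicate 2. Osgin1, an oxidative stress inhibitor of growth, had 95.4 and 95.3 CPM in G0APOL1 libraries, against 44.7 and 45.6 CPM in WT libraries (log2 fold change 1.08 ± 0.18, adjusted p = 0.00269). Of 15 tested immediate early genes, 1 rose and 2 fell (median -0.34), none passed with edgeR without either G0APOL1 library, and 1 fell without either WT library. Of 19 tested proliferation genes none passed with edgeR (1 lower at an unadjusted p under 0.05; 1 with DESeq2 and 0 with limma-voom). Of 4 tested mouse Apol genes none passed with edgeR (0 at an unadjusted p under 0.05; 0 with DESeq2 and 0 with limma-voom), and the 13 listed summed to 3.74 and 6.27 CPM in G0APOL1 libraries, against 11.2 and 12.3 CPM in WT libraries. Y-linked genes were expressed in every library, with Ddx3y between 20.7 and 28.9 CPM. Of 13 tested sex-linked and sex-biased genes, 4 rose (median 0.37). The rises numbered 1 without either G0APOL1 library and 2 without WT replicate 2. Among the 4 were Prlr, the prolactin receptor, with 16.1 and 11.5 CPM in G0APOL1 libraries, against 3.07 and 1.21 CPM in WT libraries (log2 fold change 2.67 ± 0.62, adjusted p = 0.0179), and the fatty acid hydroxylase Cyp4a14, with 22.5 and 33.0 CPM in G0APOL1 libraries, against 6.74 and 12.6 CPM in WT libraries (log2 fold change 1.52 ± 0.38, adjusted p = 0.0253). Prlr did not pass without WT replicate 2 or G0APOL1 replicate 1, and Cyp4a14 without WT replicate 1 or either G0APOL1 library. The other genes of this list that rose were Cyp2j13 and Slc7a13.

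Direct comparison with the G2APOL1 libraries shows where the kidneys with the reference form stood apart from those with the risk form. Of 14386 genes, 69 passed (0.480%), 44 higher and 25 lower in G0APOL1, and the count ranged from 27 to 150 when 1 library was left out. Comparisons of both transgenic groups with WT share the WT libraries, so levels are given side by side. Cyp4a31 had 313 and 290.0 CPM in G0APOL1, 52.6 and 57.0 CPM in G2APOL1 and 41.7 and 32.5 CPM in WT libraries (log2 fold change 2.46 ± 0.20 over G2APOL1, adjusted p = 2.05e-05), so that the G2APOL1 libraries lay near the WT libraries. Tmem267, a transmembrane protein, had 77.6 and 66.3 CPM in G0APOL1, 13.2 and 11.2 CPM in G2APOL1 and 26.5 and 17.5 CPM in WT libraries (log2 fold change 2.56 ± 0.27 over G2APOL1, adjusted p = 0.000511), and over WT it rose 3.27-fold (adjusted p = 0.00182). Egf had 364 and 404 CPM in G2APOL1 libraries (log2 fold change 1.20 ± 0.19 over G2APOL1, adjusted p = 0.0142), closer to WT than to G0APOL1. Slc25a25, a mitochondrial carrier of ATP-magnesium, had 163 and 207 CPM in G0APOL1, 57.6 and 60.4 CPM in G2APOL1 and 92.8 and 59.9 CPM in WT libraries (log2 fold change 1.65 ± 0.23 over G2APOL1, adjusted p = 0.00505). Pck1 had 1282 and 1359 CPM in G2APOL1 libraries (log2 fold change 1.54 ± 0.24 over G2APOL1, adjusted p = 0.0138), below both WT libraries. Ceacam2, a cell adhesion molecule, had 118 and 90.2 CPM in G0APOL1, 42.1 and 30.3 CPM in G2APOL1 and 46.3 and 39.3 CPM in WT libraries (log2 fold change 1.52 ± 0.23 over G2APOL1, adjusted p = 0.00899), and its rise over WT was lost without G0APOL1 replicate 1.

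Steroid-related and clock genes were also among the 69. Sgk1 had 146 and 150.2 CPM in G0APOL1, 36.5 and 40.6 CPM in G2APOL1 and 198 and 95.3 CPM in WT libraries (log2 fold change 1.94 ± 0.29 over G2APOL1, adjusted p = 0.0155), with the G0APOL1 libraries within the WT range. Tsc22d1, a leucine zipper protein, had 559.5 and 609 CPM in G0APOL1, 229 and 245 CPM in G2APOL1 and 354 and 407 CPM in WT libraries (log2 fold change 1.30 ± 0.19 over G2APOL1, adjusted p = 0.00632) and missed the threshold over WT (adjusted p = 0.0585). Nr1d1 had 42.8 and 43.2 CPM in G2APOL1 libraries, between the G0APOL1 and WT values (log2 fold change -1.62 ± 0.21 over G2APOL1, adjusted p = 0.0031). Dbp had 204 and 168 CPM in G2APOL1 libraries (log2 fold change -1.38 ± 0.22 over G2APOL1, adjusted p = 0.0138). Nccrp1 had 51.9 and 53.1 CPM (log2 fold change -1.06 ± 0.19 over G2APOL1, adjusted p = 0.0262), each likewise between the other groups. Hsd3b2, a near-identical copy of Hsd3b3, had 92.4 and 72.1 CPM in G0APOL1, 233 and 243 CPM in G2APOL1 and 91.9 and 73.1 CPM in WT libraries (log2 fold change -1.53 ± 0.20 over G2APOL1, adjusted p = 0.0031), while Hsd3b3 had 41.7 and 36.6 CPM in G2APOL1 libraries (log2 fold change 1.16 ± 0.22 over G2APOL1, adjusted p = 0.0375), so the copies differed in opposite directions.

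Other genes of the 69 set the G2APOL1 libraries apart from both other groups. Angptl7, an angiopoietin-like secreted protein, had 15.1 and 29.9 CPM in G0APOL1, 139.8 and 148 CPM in G2APOL1 and 12.4 and 7.47 CPM in WT libraries (log2 fold change -2.68 ± 0.32 over G2APOL1, adjusted p = 0.0034). Ccdc6, a coiled-coil protein, had 84.8 and 87.4 CPM in G0APOL1, 281 and 289 CPM in G2APOL1 and 144 and 115 CPM in WT libraries (log2 fold change -1.73 ± 0.19 over G2APOL1, adjusted p = 0.000577). Rpl29, a ribosomal protein, had 73.5 and 73.3 CPM in G0APOL1, 422 and 388 CPM in G2APOL1 and 68.3 and 52.1 CPM in WT libraries (log2 fold change -2.46 ± 0.20 over G2APOL1, adjusted p = 2.05e-05), and 7 genes with a near-identical stretch also had counts. Neither Angptl7, Ccdc6 nor Rpl29 passed between G0APOL1 and WT (adjusted p = 0.0514, 0.0686 and 0.425). Gfra1, a receptor subunit for GDNF, had 10.0 and 6.86 CPM in G0APOL1, 52.6 and 45.8 CPM in G2APOL1 and 27.9 and 15.7 CPM in WT libraries (log2 fold change -2.54 ± 0.33 over G2APOL1, adjusted p = 0.0034), and its fall below WT was lost without WT replicate 1 or G0APOL1 replicate 2. Serpina1d, of the alpha-1 antitrypsin cluster, had 0 and 0 CPM in G0APOL1, 195 and 161 CPM in G2APOL1 and 0.496 and 1.43 CPM in WT libraries, at least 5.57-fold lower than WT and at least 1067-fold lower than G2APOL1 (edgeR adjusted p = 0.00954 and 3.74e-07), with the call against WT lost without either G0APOL1 library. Of the 28 tested proximal tubule genes, none differed between G0APOL1 and G2APOL1 with edgeR (3 at an unadjusted p under 0.05), and of the 29 matrix genes none (0 at an unadjusted p under 0.05).

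**Figure D5:**
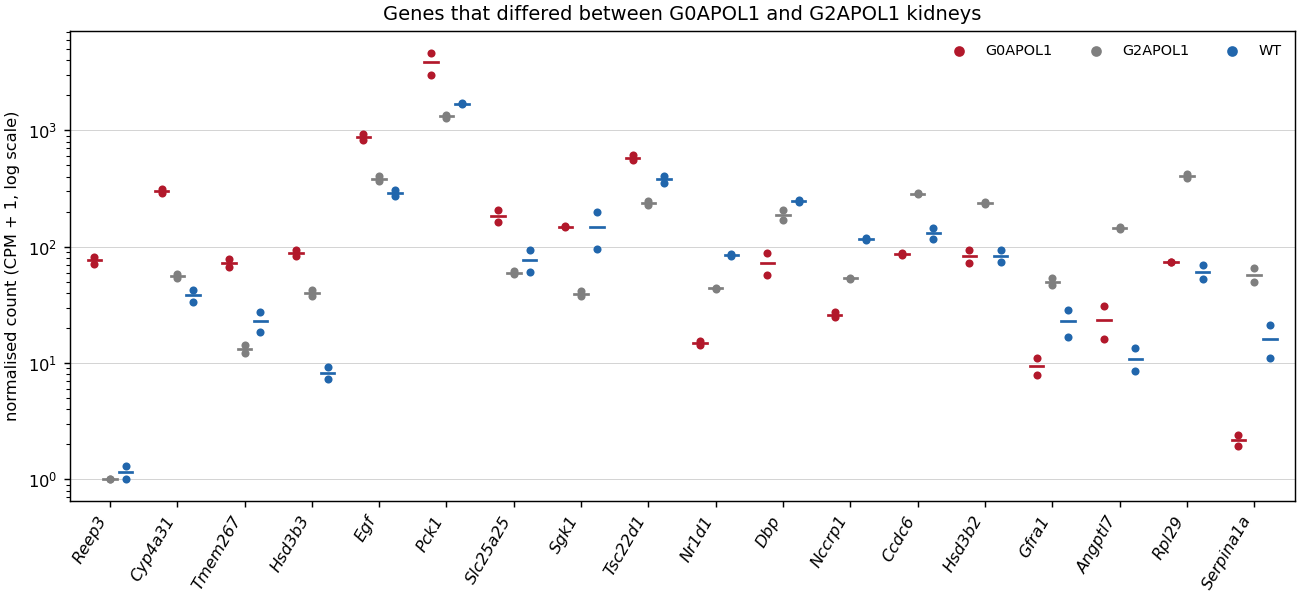
Normalised counts (CPM plus 1, log scale) of 18 genes that passed between G0APOL1 and G2APOL1, in the 2 G0APOL1 (red), 2 G2APOL1 (grey) and 2 WT (blue) libraries, from left to right; bars are group means. From Reep3 to Tsc22d1 the G0APOL1 libraries lie above the G2APOL1 libraries, and from Nr1d1 to Serpina1a they lie below.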

How the data were processed

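Bulk RNA-seq libraries were made from total RNA of kidney tissue, and all 6 carry the same batch number in the labels. The sources give 10 mg of tissue and a minimum RNA integrity number of 6. The values are the authors' deposited expected counts per gene, which are whole numbers for all but 1.39% to 1.55% of the genes of a library. The submitters' processing notes name the build mm10 and Cell Ranger ARC 2.0.2 with no role. The aligner, the counter and the use of strand are not stated in the sources used here. Of 54146 gene IDs, 54079 matched GENCODE M21 annotation (GRCm38), and 67 did not.

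Expected counts were rounded, filtered with filterByExpr, scaled by TMM and tested with edgeR 4.0.16 (robust quasi-likelihood, all 6 libraries, 3 residual degrees of freedom, Benjamini-Hochberg adjustment, threshold 0.05) in R 4.3.3. Alternatives were DESeq2 1.42.0, limma-voom 3.58.1, size factors of DESeq2, other filters, the 4 compared libraries alone, no mitochondrial genome, a replicate block, and leaving out each library. Fold changes come from the fit; a group with 0 counts was set to a floor of 3 counts over the group. Intervals and floors cover counting error only. Copies were found with minimap2 2.31 at 95% identity over 50% of the length. Tables used Python 3.11.15 with numpy 2.4.6, pandas 2.3.3 and scipy 1.17.1; figures used matplotlib 3.10.9.

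Named genes were those with the largest changes and smallest p whose groups did not overlap, without predicted genes and pseudogenes, up to 4 per list by p, those that differed most between G2APOL1 and G0APOL1, and 15 named whatever their result. Rps3a3, Ighm, Ddx3y and some members of the lists were added after their values were seen. Some genes that meet the rule are not reported here. The members, the 45 gene lists and the motifs were chosen with earlier results of these data known. Replicates of each group differed by more than sampling noise (chi-square per degree of freedom 22.2 for G0APOL1, 10.3 for G2APOL1 and 50.9 for WT).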

Additional observations from a re-analysis of the deposited data

Results flagged for a closer look

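Of the genes named above, 24 passed the direct test between the transgenic groups at an edgeR adjusted p under 0.05, as did 69 of all tested genes (0.48%). Many of the 24 were named because they passed this same test, so their number says nothing about the named genes. Higher in G0APOL1 than in G2APOL1, by log2 fold change, were Tmem267 (2.56), Cyp4a31 (2.46), Sgk1 (1.94), Slc25a25 (1.65), Pck1 (1.54), Ceacam2 (1.52), Tsc22d1 (1.30), Clu (1.23), Mme (1.23), Egf (1.20), Hsd3b3 (1.16) and Calb1 (0.98). Reep3 was at least 530.5-fold higher in G0APOL1. Lower in G0APOL1 were Serpina1a (-5.57), Angptl7 (-2.68), Gfra1 (-2.54), Rpl29 (-2.46), Ccdc6 (-1.73), Nr1d1 (-1.62), Hsd3b2 (-1.53), Dbp (-1.38), Aqp4 (-1.12) and Nccrp1 (-1.06). Serpina1d was at least 1067-fold lower in G0APOL1. Groups of 2 libraries are too small to look for single outlying libraries by rule.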

How the results depend on the processing

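None of the 1175 genes called between G0APOL1 and WT changed sign under any alternative run. In all of them the G0APOL1 and WT libraries did not overlap in CPM, so a change of sign was unlikely from the start. The count was 658 when only the 4 compared libraries were fitted (297 higher), of which 649 were among the 1175, and the lower genes numbered 804 with no low-count filter. Leaving out 1 library gave 599 to 1721 genes, 281 to 1116 higher and 280 to 605 lower. Between G2APOL1 and G0APOL1, 69 genes became 245 with no filter, 134 with DESeq2, 119 with 4 libraries alone, and 27 to 150 when 1 library was left out. Same-numbered libraries deviated together only weakly. The correlation of deviations was 0.0956 between WT and G0APOL1, 0.0578 between WT and G2APOL1 and 0.0426 between G0APOL1 and G2APOL1. A replicate block gave 1618 genes (936 higher, 682 lower) and 120 between G2APOL1 and G0APOL1. Values near 0 that did not pass changed sign. Agt was 0.06 without WT replicate 1, and -0.42 to 0.27 over all libraries left out in turn. Hsd3b2 was 0.01 with no filter and -0.24 to 0.18 with a library left out, and Nphs1 was -0.20 without WT replicate 1 and ranged from -0.63 to 0.54. Sgk1 was -0.01 with DESeq2 or its size factors, -0.00 with 4 libraries, -0.02 without the mitochondrial genome and -0.42 to 0.64 with a library left out. The cause was not tested. None of 736 genes with a mean under 1 CPM passed with edgeR.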
